A study of Mus musculus with 20 samples.

Results

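Transcripts of the exocrine pancreas and of the stomach were measured in RNA from mouse small intestine. The members were 37 genes of the 55487 in the count table, chosen by name from organ knowledge: 25 genes of pancreatic acinar cells and 12 genes of gastric mucosa. The 25 acinar genes held 22 core acinar genes and 3 genes that other tissues are also known to express (Cela1, Pnliprp2 and Rnase1). The 12 gastric genes held 9 core gastric genes and 3 that Brunner's glands of the duodenum share with the stomach (Muc6, Tff2 and Nkx6-3). The question put to them was whether the transcripts of both organs rose and fell together between the libraries of 2 weeks.

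The study compared pups of control dams with pups of dams with periodontitis, an inflammation of the tissue around the teeth. Polyadenylated RNA of small intestine was sequenced at 2 weeks, when mouse pups suckle, and at 7 weeks, after weaning. Each of the 4 groups held 5 libraries, called C1 to C5 for control dams and P1 to P5 for dams with periodontitis, with the age named. Strain, sex, litter, intestinal segment, batch and the way in which periodontitis was brought about were not given in the labels, so p-values measure the spread between these libraries only.

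Acinar cells of the pancreas make the zymogens and enzymes that digest starch, fat and protein in the duodenum, and release them through the pancreatic duct. The stomach lining is covered by pit cells, which secrete mucus, gastrokines and trefoil factors, while its glands hold mucous neck cells, acid-secreting parietal cells and pepsinogen-secreting chief cells. Brunner's glands, in the first stretch of the duodenum, secrete a mucus close to that of the gastric glands.

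The deposited counts summed to between 14.9 M and 42.6 M (M, 1000000 counts) per library. One library of 2 weeks stood apart: C5 had the lowest total (14.9 M), 29.4% of its counts came from mitochondrial genes against 3.99 to 6.001% in the other 9, and 5538 of 17240 genes lay below 0.5 times the median of the others. All 8 markers of intestinal epithelium were present, and their summed level was 3740 to 6910 CPM (counts per 1000000 of the scaled library size) at 2 weeks and 8868 to 17003 at 7 weeks. The squamous forestomach list summed to at most 0.75 CPM in any library. Of the 37 members, 35 had enough counts to be tested. Those that did not were Ctrc, with 53 counts at 2 weeks and 6 at 7 weeks, and Atp4b, with 2 and 0. The Ctrc gene model encloses Cela2a on the same strand, so the reads given to Ctrc are uncertain.

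At 2 weeks both sets were abundant and both varied widely between libraries. The 25 acinar genes summed to 1702.5, 483, 758, 1495 and 2909 CPM in C1 to C5, and to 2465, 1914, 1063, 3295 and 294 in P1 to P5. The 12 gastric genes summed to 1483, 1891, 1577, 1983.5 and 2109 CPM in C1 to C5, and to 2681, 124, 1227, 1715 and 2118 in P1 to P5. The acinar sum was lowest in P5 and C2 and highest in P4 and C5, whereas the gastric sum was low in P2 alone. The rank of C5 depended on the scaling of library sizes. As a share of all its counts its acinar genes held 0.243%, below P4 (0.479%), P1 (0.310%) and P2 (0.256%). Its gastric share was 0.176%, above only P2 (0.0166%) and P3 (0.169%). At 7 weeks the acinar sum was 43.9 to 75.7 CPM and the gastric sum 1.74 to 9.40, and no library of 7 weeks reached the lowest of 2 weeks in either set. Most of that acinar sum came from few genes: Cela1, Pnliprp2 and Rnase1 together gave 26.5 to 45.4 CPM, and Clps 11.1 to 35.9. In bulk tissue, fewer cells of a type and less RNA per cell cannot be told apart.

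**Figure D1:**
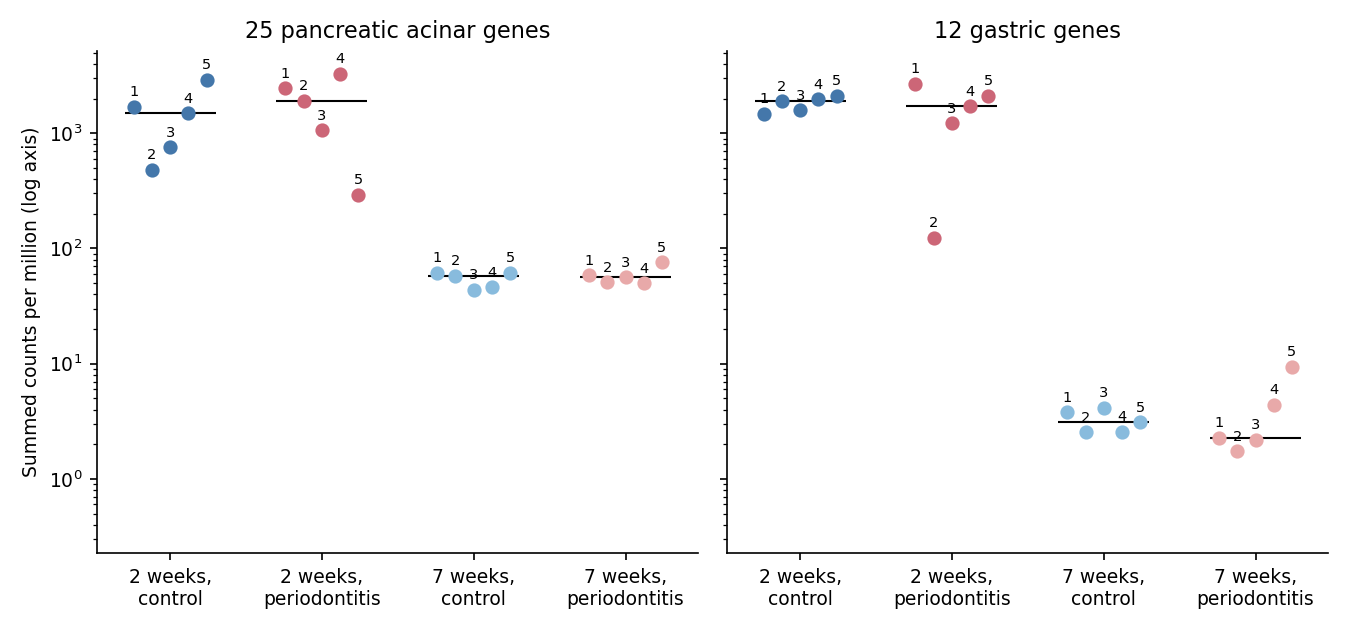
Summed CPM (log axis) of the 25 acinar genes (left) and the 12 gastric genes (right) in each of the 20 libraries, by age and dam. Points are libraries labelled by replicate number and lines are group medians; P2 of 2 weeks is low in the gastric panel only, at 124, and P5 of 2 weeks in the acinar panel only, at 294.

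No common movement of the 2 organs' transcripts was seen. The ratio of the acinar to the gastric sum was 1.15, 0.255, 0.481, 0.754 and 1.38 in C1 to C5, and 0.919, 15.5, 0.866, 1.92 and 0.139 in P1 to P5. Over the 10 libraries of 2 weeks the log2 sums had a Pearson correlation of -0.14 and a Spearman correlation of 0.01, given as a description of summed members. Without P2 these were 0.11 and 0.05, without P5 -0.04 and 0.27, without both 0.36 and 0.36 over 8 libraries, and without C5 -0.22 and -0.13. The ratio thus spanned the range from P5, with acinar counts far below gastric ones, to P2, with the reverse.

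The acinar members moved together across libraries, and the gastric members did so more loosely. Rank correlations across the 10 libraries were computed for every pair of members with at least 10 counts, with the 3 indistinguishable amylase copies taken once. The median Spearman correlation was 0.70 over the 253 pairs of acinar genes, of which 246 were positive. It was 0.35 over the 55 pairs of gastric genes, of which 45 were positive, and -0.13 over the 253 pairs of an acinar and a gastric gene, of which 78 were positive. With the mean of each dam group removed, the medians were 0.75, 0.54 and -0.08 in the same order. Leaving out each library in turn gave 0.65 to 0.83 within the acinar set, 0.23 (without P2) to 0.48 within the gastric set and -0.23 to 0.07 between the sets; without C5 they were 0.83, 0.40 and -0.13. Pairs share genes, libraries and depth, so these medians are descriptions. At 7 weeks, where 9 acinar and 4 gastric members had enough counts, the medians were 0.04, 0.05 and 0.16.

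**Figure D2:**
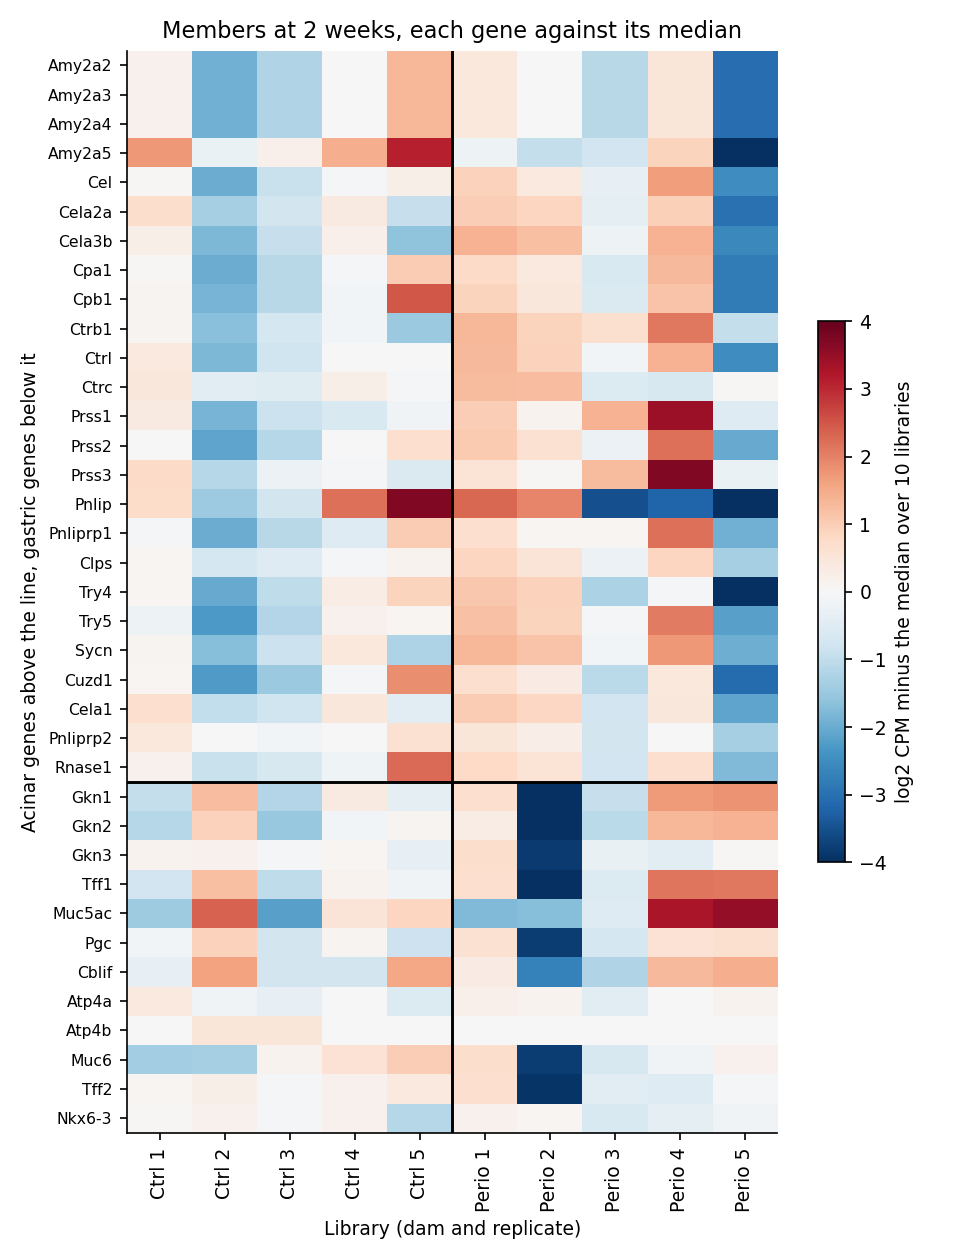
Level of each of the 37 members in the 10 libraries of 2 weeks, as log2 CPM minus the median of that gene over the 10 libraries, with colours capped at 4 in either direction. Acinar genes stand above the horizontal line and gastric genes below it; the blue columns of C2 and P5 run through 21 and 22 of the 25 acinar genes, those below 0.5 times the median of the other 9 libraries, with Muc6 low in C2 as well, and that of P2 through 9 of the 11 gastric genes with at least 50 counts.

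The most abundant gene of each set was used for a test of the relation, since it was picked by its mean level and not by how it varied. Ctrb1, which encodes the protease zymogen chymotrypsinogen B, measured 195, 56.3, 111, 168 and 64.6 CPM in C1 to C5 and 458, 332, 282, 776 and 92.7 in P1 to P5. Gkn3, a gastrokine gene of gland mucous cells in the antrum, measured 523, 537, 459, 503 and 385 CPM in C1 to C5, and 772, 33.3, 392, 350.2 and 499 in P1 to P5. Tff2, a trefoil peptide of mucous neck cells and Brunner's glands, measured 696, 786, 635, 742 and 877 CPM in C1 to C5, and 1053, 43.4, 497, 466 and 631 in P1 to P5. Gkn3 and Tff2 both lay far lower in P2 than in any other library of 2 weeks, and Ctrb1 did not. Each gene followed its set only in part. Spearman's correlation was 0.60 for Ctrb1 with the acinar sum, and 0.50 for Gkn3 and 0.70 for Tff2 with the gastric sum. The tests therefore cover these genes and not the whole sets.

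No relation of Ctrb1 to either gastric gene was detected. For Ctrb1 and Gkn3 the Pearson correlation of log2 CPM was -0.24 (two-sided permutation p = 0.563, adjusted over 6 relations 0.563, n = 10) and Spearman's rho was -0.25 (permutation p = 0.491, adjusted 0.589). For Ctrb1 and Tff2 they were -0.33 (permutation p = 0.401, adjusted 0.481) and -0.42 (permutation p = 0.233, adjusted 0.466). Without P4 and C2, which lay farthest from the median of Ctrb1, the Pearson values were -0.24 and -0.34 over 8 libraries. With the mean of each dam group removed they were -0.03 and -0.08 over 10 libraries. A correlation that misses the threshold over 10 libraries does not show that the genes were unrelated.

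Gkn3 and Tff2 rose and fell together: Pearson's r was 0.98 (permutation p = 0.00113, adjusted 0.00678, n = 10) and Spearman's rho 0.72 (permutation p = 0.023, adjusted 0.138). That relation rested on few libraries. Without P2 and P1, farthest from the median of Gkn3, r was 0.52 (permutation p = 0.186), without P2 alone it was 0.74 and without P1 alone 0.98, and neither of the last 2 passed the adjusted threshold. The ratio of Gkn3 to Tff2 was 0.678 to 0.751 in C1 to C4, 0.439 in C5 and 0.734 to 0.790 in P1 to P5, P2 included, so that both transcripts were lower there by about the same factor.

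**Figure D3:**
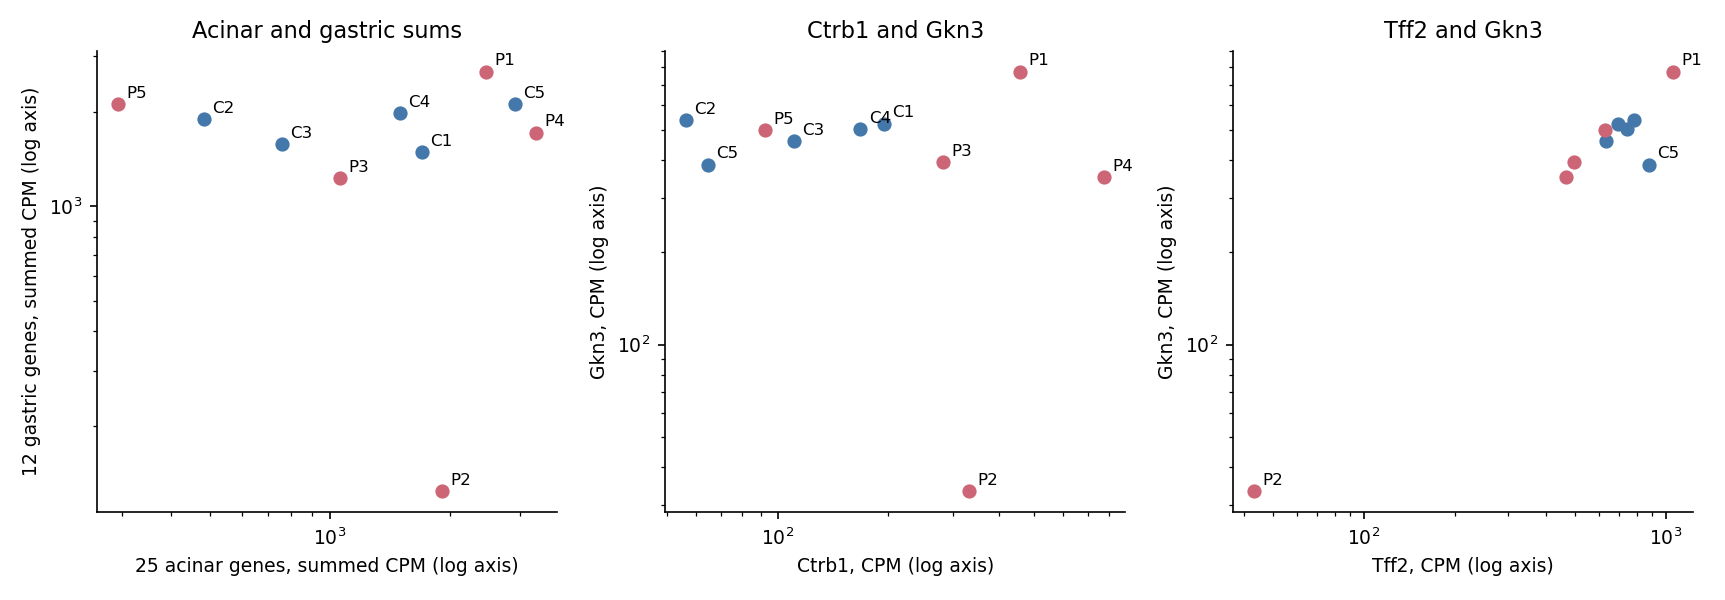
Levels in the 10 libraries of 2 weeks on log axes: acinar sum against gastric sum (left), Ctrb1 against Gkn3 (middle) and Tff2 against Gkn3 (right), in CPM. Blue points are control (C) and red points periodontitis (P) libraries; in the right panel P2 lies at 43.4 and 33.3 CPM and the other 9 at 466 to 1053 and 350.2 to 772.

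Each library of 2 weeks was then set against the median of the other 9, gene by gene, as a description chosen after the values were seen. In P2, 9 of the 11 gastric members with at least 50 counts lay below 0.5 times that median, and the median ratio was 0.0653. Among all 17240 genes with such a ratio in P2, 254 lay below 0.5, and the median was 0.999. The gastric members of P2 that did not lie low were Atp4a, at 1.14 times, and Nkx6-3, at 11.997 CPM. The 25 acinar members of P2 had a median ratio of 1.52.

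P5 and C2 showed the opposite split. In P5, 22 of 25 acinar members lay below 0.5 times the median of the other libraries, with a median ratio of 0.172, while the gastric members had a median ratio of 1.68. In C2, 21 of 25 acinar members lay below 0.5, with a median ratio of 0.259, and the gastric members had a median ratio of 2.05, with Muc6 alone below 0.5, at 0.354. The share of all genes below 0.5 was small there too, at 616 of 17238 in P5 and 284 of 17240 in C2. P4 and P1 lay high in acinar genes, with 14 and 13 of 25 members above 2 times the median of the others. Among all genes, 775 of 17240 in P4 and 138 of 17237 in P1 lay above 2 times. In C5 these were 10 of 25 acinar members and 2976 of 17240 genes. The 25 hold Amy2a2, Amy2a3 and Amy2a4 as separate members, although their counts are identical.

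Among acinar products, those that digest starch came from gene copies that could only partly be separated. Pancreatic alpha-amylase is encoded by a row of gene copies on chromosome 3 of GRCm38: Amy2a5 (chr3:113247178-113258837), Amy2a4 (chr3:113279843-113291449), Amy2a3 (chr3:113312455-113324052) and Amy2a2 (chr3:113345055-113356658), all on the minus strand. Their annotated coding sequences of 1524 bases were identical, and the whole transcripts of Amy2a2, Amy2a3 and Amy2a4 (3717 bases) were identical to each other, so these 3 carried the same count in every library and cannot be told apart. Amy2a5 differed from them at 60 places, all in the 3′ UTR, and its count rests on reads from there.

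Amy2a2 measured 114, 26.8, 44.7, 101 and 259 CPM in C1 to C5 and 136, 104, 47.3, 144 and 12.4 in P1 to P5. Amy2a5 measured 219, 54.3, 75.7, 177 and 564 CPM in C1 to C5, and 56.4, 33.9, 38.1, 120.0 and 0.246 in P1 to P5. The ratio of Amy2a5 to Amy2a2 was 1.92, 2.02, 1.69, 1.76 and 2.18 in C1 to C5 and 0.414, 0.327, 0.805, 0.835 and 0.0198 in P1 to P5. The groups did not overlap in that ratio, which was chosen after the values were seen and was not tested. Other ratios below were chosen in the same way. How often ratios of other gene pairs separate the groups was not counted, so nothing about the dam is read from a lack of overlap.

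The fat-digesting products did not keep their proportions. Pnlip encodes pancreatic triglyceride lipase, Pnliprp1 and Pnliprp2 its relatives, Clps the lipase cofactor colipase, and Cel the bile salt-stimulated lipase. Pnlip measured 15.4, 3.29, 5.43, 42.7 and 119 CPM in C1 to C5 and 44.9, 35.8, 0.751, 0.938 and 0.0894 in P1 to P5. Pnliprp1 measured 98.4, 25.8, 47.4, 71.4 and 207 CPM in C1 to C5 and 164, 109, 108, 476 and 26.9 in P1 to P5. Cel measured 74.0, 18.0, 38.4, 69.5 and 84.8 CPM in C1 to C5 and 135, 94.2, 57.4, 228 and 12.7 in P1 to P5. The ratio of Pnlip to Pnliprp1 was therefore 0.115 to 0.597 in C1 to C5, 0.274 and 0.330 in P1 and P2, and 0.00695, 0.00197 and 0.00333 in P3 to P5. P4 carried the highest Pnliprp1 and Cel of all libraries together with a Pnlip level below that of every control library.

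How closely a member followed the acinar sum differed between kinds of enzyme, and among the fat-digesting products also within a kind. Spearman's correlation with the sum of the 25 genes, which holds each of them, was 1.00 for Cpa1, the gene of procarboxypeptidase A, 0.99 for Cpb1, that of procarboxypeptidase B, and 0.72 and 0.75 for the elastase genes Cela2a and Cela3b. Among fat-digesting products it was 0.96 for Cel, 0.95 for Pnliprp1 and 0.94 for Clps, but 0.66 for Pnliprp2 and 0.56 for Pnlip. The lowest value was 0.12, for the chymotrypsin C gene Ctrc, which had 53 counts in all at 2 weeks. Cela2a measured 179, 43.7, 66.5, 142 and 58.0 CPM in C1 to C5 and 221, 200, 86.3, 214 and 14.0 in P1 to P5. Cpb1 measured 73.4, 18.8, 31.0, 62.3 and 382 CPM in C1 to C5 and 125, 93.0, 45.5, 149 and 9.75 in P1 to P5. Cpb1 in C5 lay far above the other control libraries, and Cela2a in C5 did not. Between fat-digesting genes, Spearman's correlation was 0.99 for Cel with Clps, 0.92 for Cel with Pnliprp1 and for Pnlip with Pnliprp2, and 0.41 for Pnlip with Pnliprp1. The ratio of Cela2a to Cela3b was 3.37, 3.39, 2.77, 2.73 and 3.92 in C1 to C5 and 1.85, 1.94, 2.20, 1.79 and 1.87 in P1 to P5, again without overlap. The ratio of Ctrb1 to Cela2a was 1.09 to 1.66 in C1 to C5, 2.08 and 1.66 in P1 and P2, and 3.26, 3.63 and 6.61 in P3 to P5.

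The trypsinogens, zymogens of the protease that activates the others, are encoded by close copies within a stretch of chromosome 6. A part of the coding sequence is shown for 3 of them because their proportions changed between libraries and because it shows how far reads of one can be told from another. Their genes are Try4 (chr6:41302269-41305532, plus strand), Prss1 (chr6:41458932-41463786, plus strand) and Prss2 (chr6:41521787-41525079, plus strand) in GRCm38. Coding bases 253 to 342 are given from the annotated transcripts. Capitals mark the 25 of 90 positions that are not the same in all of the trypsinogens Prss1, Prss2, Prss3, Try4 and Try5. Try5 has the same 90 bases as Try4, so this stretch does not separate Try4 from Try5.
Prss1: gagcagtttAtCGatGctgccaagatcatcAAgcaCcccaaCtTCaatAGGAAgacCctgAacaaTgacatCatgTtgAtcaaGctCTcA
Prss2: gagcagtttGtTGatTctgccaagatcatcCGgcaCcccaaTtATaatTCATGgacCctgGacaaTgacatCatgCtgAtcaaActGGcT
Try4: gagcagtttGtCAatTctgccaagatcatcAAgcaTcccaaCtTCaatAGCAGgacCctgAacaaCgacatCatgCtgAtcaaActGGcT
Over the whole 738 coding bases these 5 genes differed at 117 positions. Prss1 and Prss2 were 89.57% identical, Prss2 and Try4 91.73%, Prss1 and Prss3 96.34%, and Try4 and Try5 97.43%, so the split between the members of the last 2 pairs is the less certain.

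Prss2 measured 31.7, 7.38, 14.7, 33.0 and 51.4 CPM in C1 to C5 and 66.9, 49.8, 27.6, 148 and 8.003 in P1 to P5. Try4 measured 52.9, 12.4, 25.04, 61.4 and 93.4 CPM in C1 to C5 and 105, 94.95, 21.1, 47.9 and 2.97 in P1 to P5. The ratio of Try4 to Prss2 was 1.57 to 1.91 in C1 to C5 and in P1 and P2, but 0.765, 0.324 and 0.372 in P3 to P5. Prss1 was the reverse: its ratio to Prss2 was 0.0188 to 0.0439 in C1 to C5 and in P1 and P2, and 0.106, 0.0810 and 0.0922 in P3 to P5. At its highest, in P4, Prss1 measured 11.97 CPM.

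Other intestinal and blood-protein genes also differed in P3 to P5. Fabp6, the ileal bile acid-binding protein gene, measured 197 to 510 CPM in C1 to C5, 365 and 328 in P1 and P2, and 17.5, 2.92 and 8.07 in P3 to P5. Most of the distal ileum list that holds it did not fall so. In P3 to P5, 3, 4 and 3 of its 10 genes lay below 0.5 times the median of the others. These were Fabp6, Slc10a2 and Slc5a12, with Lgals2 in P4. Pyy of that list was higher, at 16.2, 15.8 and 17.1 CPM in P3 to P5 against 7.57 to 14.5. The 10 genes of a liver list summed to 29.1 to 90.9 CPM in C1 to C5, P1 and P2 and to 166, 192 and 215 in P3 to P5, although its defining member Alb was at 0 to 0.299 CPM in all libraries of 2 weeks. The part of such differences in the acinar proportions was not tested. Ins2, an insulin gene of islet beta cells, was present at low levels, at 0.659, 0.276, 0.318, 0.154 and 0.563 CPM in C1 to C5 and 2.19, 1.66, 2.66, 3.38 and 0.291 in P1 to P5. It was lowest in C4 and below 0.32 CPM in C2, C3 and P5 too, and of the 8 islet genes with at least 50 counts only Ins1 and Ins2 lay below 0.5 times the median of the others in P5.

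**Figure D4:**
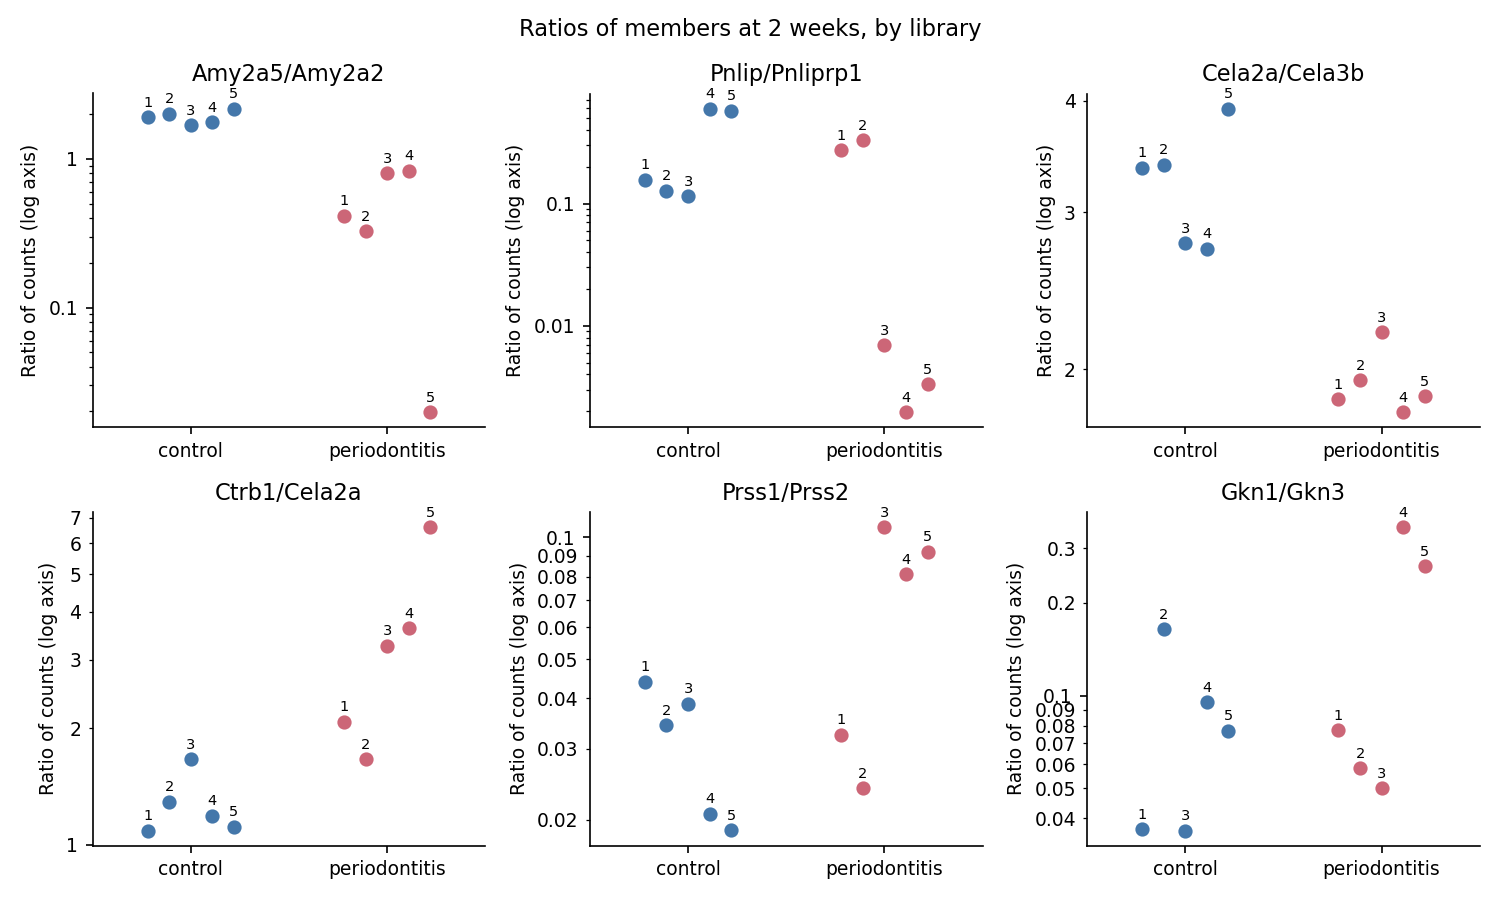
Ratio of counts of 6 pairs of members in each library of 2 weeks (log axes), by dam; points are libraries labelled by replicate number. Amy2a5/Amy2a2 and Cela2a/Cela3b do not overlap between dams, whereas Pnlip/Pnliprp1 is at most 0.00695 in P3 to P5, and Gkn1/Gkn3 is highest in P4 and P5. The pairs were chosen after the values were seen and were not tested.

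Among gastric members the pit cell genes moved closely together, and the gland mucous genes Gkn3, Tff2 and Muc6 did so less closely. Gkn1 and Gkn2 encode gastrokines and Tff1 a trefoil peptide, all products of pit cells, and Muc5ac encodes the pit cell mucin. Tff1 measured 31.3, 124, 26.6, 58.6 and 48.9 CPM in C1 to C5 and 85.1, 2.54, 36.3, 236 and 229.85 in P1 to P5. Gkn2 measured 26.5, 112, 20.5, 54.4 and 63.9 CPM in C1 to C5 and 73.2, 2.02, 27.7, 149 and 155 in P1 to P5. Both were high in C2, P4 and P5 and lowest in P2. Spearman's correlation was 0.99 for Gkn1 with Gkn2 and for Gkn1 with Tff1, and 0.31 for Gkn1 with Gkn3. The pepsinogen gene Pgc and the intrinsic factor gene Cblif also followed pit cell genes, at 0.85 for Pgc with Gkn1 and 0.81 for Cblif with Gkn2. Among gland mucous genes it was 0.72 for Gkn3 with Tff2, 0.61 for Muc6 with Tff2 and 0.19 for Muc6 with Gkn3. Muc6 had higher values with the pit cell genes Gkn1 (0.39), Gkn2 (0.42) and Tff1 (0.37) than with Gkn3. Muc5ac was low, at 0.0387, 1.27, 0, 0.308 and 0.402 CPM in C1 to C5 and 0.0187, 0.0213, 0.122, 2.39 and 2.84 in P1 to P5, again highest in P4 and P5.

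Muc6, the mucin of gastric glands and Brunner's glands, measured 128, 134, 378, 511 and 669 CPM in C1 to C5 and 549, 24.6, 216, 305 and 380.3 in P1 to P5. It was lowest in P2 and, unlike Tff2, also low in C1 and C2: the ratio of Muc6 to Tff2 was 0.184 and 0.171 there and 0.434 to 0.763 in the other 8 libraries. The sum of Gkn3, Tff2 and Muc6 and the sum of Gkn1, Gkn2, Tff1 and Muc5ac had a Pearson correlation of 0.79, and of 0.03 without P2, so that their common movement rested on P2. Nkx6-3, a homeobox gene of antrum and duodenum, measured 11.8, 13.0, 11.1, 12.8 and 5.15 CPM in C1 to C5 and 12.9, 11.997, 7.57, 8.83 and 10.5 in P1 to P5, and was not low in P2.

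Genes of acid secretion and of intrinsic factor were scarce. Atp4a, the proton pump subunit of parietal cells, measured 0.241 to 0.523 CPM in the libraries of 2 weeks, and its partner Atp4b had 2 counts in all. Cblif, the gene of gastric intrinsic factor, measured 0.0639 to 2.35 CPM. Of a wider stomach list, Lipf, Chia1, Cckbr, Slc26a7 and Kcne2 did not exceed 0.241 CPM in any library, and Lipf had 0 counts in all 20. Pgc, a pepsinogen gene, was not scarce, at 27.7 to 92.6 CPM in C1 to C5. It measured 3.43 CPM in P2 and 29.8 to 76.1 in the other periodontitis libraries. The gastric set in these libraries was thus one of pit and mucous gland genes with Pgc, and with parietal genes near 0.

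A wider list of gastric genes, none of them members, was split in P2, as counted after the values were seen. Of 17 of its 22 genes with at least 50 counts at 2 weeks, 9 lay below 0.5 times the median of the other libraries in P2 (Sox21, Barx1, Vsig1, Mucl3, Gast, Psca, Aqp5, A4gnt and Cldn18) and 8 did not (Sox2, Anxa10, Ctse, Ghrl, Capn8, Capn9, Kcnj15 and Hdc), and the median ratio was 0.134. The count below 0.5 was 7 in C3 and 0 to 3 in the other 8 libraries. Anxa10 and Ctse were lowest in P3, at 9.90 and 22.6 CPM, and Aqp5 was as low in C5 as in P2. A4gnt, the glycosyltransferase that caps gland mucin with N-acetylglucosamine, measured 27.7, 32.8, 23.0, 25.6 and 19.3 CPM in C1 to C5 and 33.8, 2.45, 20.4, 20.6 and 23.5 in P1 to P5. A4gnt was low in P2 alone. Gast, the gastrin gene of antral G cells, chosen after its values were seen, was 0.128 CPM in P2 and 1.41 to 10.1 in the others. Of the 12 genes of a proximal duodenum list with at least 50 counts, 0 lay below 0.5 times the median of the others in P2, and their median ratio was 1.04. That list's sum is mostly Apoa4, an apolipoprotein gene of enterocytes, at 89.6% in P2; without it the sum was 2846 CPM in P2 and 1297 to 3287 over the 10 libraries.

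Promoter sequence is shown for 4 members, since acinar genes varied together and Gkn3 apart from them. Of the 37 members, 29 had an entry in a table of RefSeq gene starts (GRCm38.p6), and the others were Nkx6-3, Atp4b, Clps, Tff1, Muc5ac, Tff2, Try5 and Ctrc. The 150 bases before the start are printed 5′ to 3′ on the strand of the gene. Capitals mark CACCTG, the E-box part of the site of the acinar factor PTF1, TTTCCC, the other part of that site, and GATAAG, letters that GATA factors are known to bind, each searched on both strands; matches that overlap would be counted separately.
Cel, chr2:28563404-28563553, minus strand: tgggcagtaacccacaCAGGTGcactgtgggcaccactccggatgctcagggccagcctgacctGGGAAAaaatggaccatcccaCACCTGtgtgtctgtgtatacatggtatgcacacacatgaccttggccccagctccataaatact
Ctrb1, chr8:111691011-111691160, minus strand: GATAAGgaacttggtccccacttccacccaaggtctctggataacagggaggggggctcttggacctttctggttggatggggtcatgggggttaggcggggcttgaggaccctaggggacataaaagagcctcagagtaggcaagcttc
Prss1, chr6:41458780-41458929, plus strand: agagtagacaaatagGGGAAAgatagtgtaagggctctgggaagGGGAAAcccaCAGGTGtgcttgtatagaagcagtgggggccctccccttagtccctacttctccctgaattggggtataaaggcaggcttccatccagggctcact
Gkn3, chr6:87388936-87389085, minus strand: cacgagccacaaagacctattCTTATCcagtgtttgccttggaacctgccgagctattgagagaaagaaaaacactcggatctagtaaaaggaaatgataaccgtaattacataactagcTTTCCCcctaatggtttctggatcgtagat
Over 250 bases before the start, CACCTG occurred in 11 of 22 acinar and 2 of 7 gastric promoters, beside 17.2% of all 32851 promoters in the table. TTTCCC occurred in 7 of 22 and 1 of 7, beside 21.9%, and CACCTG with TTTCCC in 5 of 22 and 0 of 7, beside 3.61%. GATAAG occurred in 9 of 22 and 3 of 7, beside 6.55%. The windows of Amy2a2, Amy2a3 and Amy2a4 are identical, and a match of letters is not a bound site.

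The dam's periodontitis was tested in pups of 2 weeks against the spread between libraries. In edgeR's quasi-likelihood test with Benjamini-Hochberg adjustment over 17464 genes, 0 of 35 members were called at an adjusted p under 0.05, beside 0.0286% of all genes called. At an unadjusted p under 0.05 there were 7 of 35 members and 2511 of 17464 genes. DESeq2 called 1 of 35 members, Ctrb1, beside 3.37% of all genes, and limma-voom with sample quality weights called 7 of 35, beside 29.8% of all genes. The median fitted log2 fold change was 0.46 for the 24 acinar members tested, 15 of them fitted higher, and 0.04 for the 11 gastric members, 6 of them fitted higher, beside 0.02 over all genes. Amy2a2, Amy2a3 and Amy2a4, with identical counts, entered as separate acinar members, each fitted lower. Of the 37 members, 0 had groups that did not overlap. The share over all genes is not given here, so nothing is read from that count.

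The member nearest to the threshold was Ctrb1, with a log2 fold change of 1.71 ± 0.44 (SE, 5 against 5 libraries, edgeR adjusted p = 0.091). DESeq2 gave Ctrb1 1.69 with an adjusted p of 0.0318, and limma-voom gave 1.25 with an adjusted p of 0.0112. Without P4, the library with the highest Ctrb1, the edgeR value was 1.29. Prss1 followed at 2.31 ± 0.73 (edgeR adjusted p = 0.179), and was 1.20 without P4. In the other direction Amy2a5 had -2.13 ± 0.85 (edgeR adjusted p = 0.265), and -1.40 without C5. The value of Cpb1 turned with 1 library: it was -0.42 ± 0.64 (edgeR adjusted p = 0.781) with all libraries and 0.86 without C5. Pnlip, at -1.16 ± 1.05 (edgeR adjusted p = 0.627), was -0.02 without C5. The tools differed for several of these: limma-voom gave Pnlip -3.03 (adjusted p = 0.0133), Prss1 1.99 (adjusted p = 0.00554) and Amy2a5 -2.55 (adjusted p = 0.0376). Besides Ctrb1, its other calls were Prss3, Pnliprp2 and Nkx6-3, where it called 29.8% of all genes. DESeq2 called none of these but Ctrb1. Among gastric members, Gkn3 had -0.23 ± 0.67 (edgeR adjusted p = 0.897), and 0.06 without P2. Muc6 had -0.30 ± 0.57 (edgeR adjusted p = 0.832), and 0.03 without C5.

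**Figure D5:**
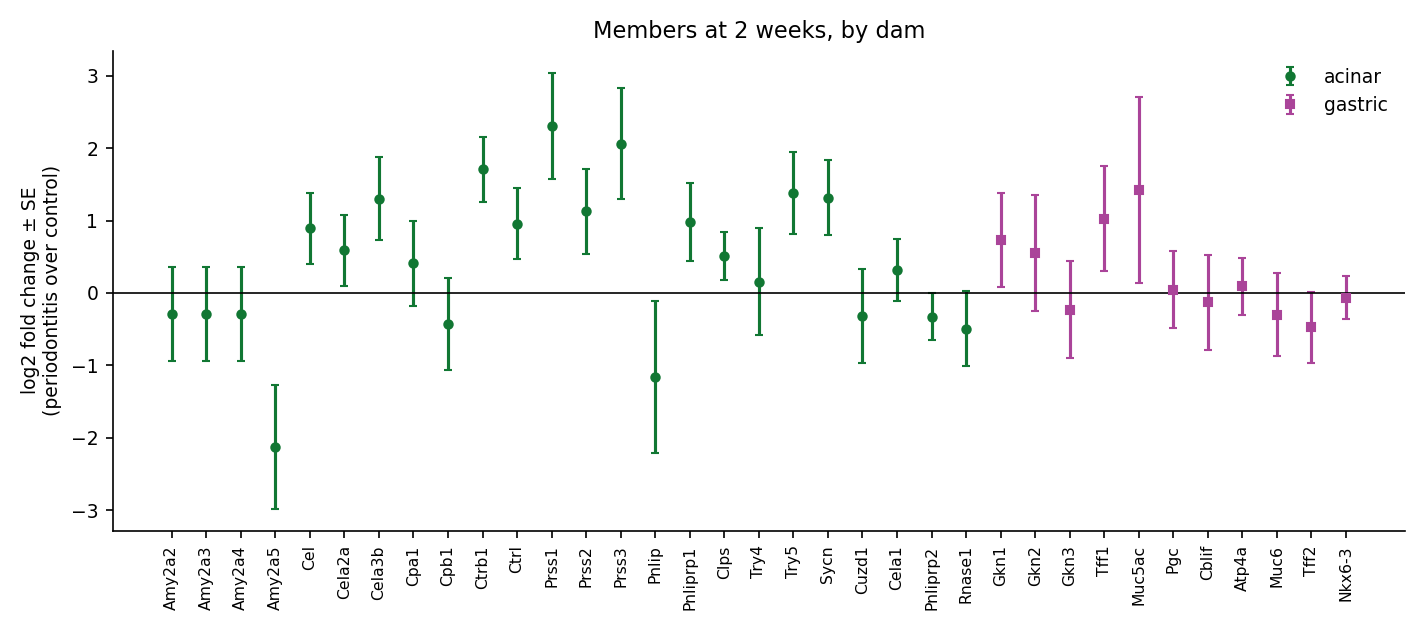
Log2 fold change of periodontitis over control dams at 2 weeks for the 35 members tested, with bars of 1 SE from edgeR; circles are acinar and squares gastric genes. Values range from -2.13 for Amy2a5 to 2.31 for Prss1, and 0 of the 35 passed the adjusted threshold.

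In pups of 7 weeks 0 of 35 members were called by edgeR for the dam, beside 0.0115% of all genes, and 0 had an unadjusted p under 0.05, against 582 of all genes; DESeq2 and limma-voom called 0 members as well, beside 0.117% and 0.0458% of all genes. The difference of the dam effect between the ages was called for 0 of 35 members, beside 0.0229% of all genes, with 0 at an unadjusted p under 0.05 against 1537 of all genes; DESeq2 and limma-voom again called 0 members, beside 0.333% and 6.77% of all genes. Most members had too few counts at 7 weeks for a difference to be detectable.

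Between 2 and 7 weeks nearly all members differed, but most members passed the filter on low counts through the libraries of 2 weeks only, and such genes had to differ. In edgeR 34 of 35 members were called lower at 7 weeks in pups of control dams, beside 5999 of 17464 genes called lower. In pups of dams with periodontitis 34 of 35 were called lower, beside 6230 of 17464 genes. In either direction 61.5% and 66.1% of all genes were called. No support is drawn from those counts. The 9 members that passed a filter on the libraries of 7 weeks alone were Cela1, Pgc, Clps, Pnliprp2, Gkn3, Ctrl, Rnase1, Pnliprp1 and Muc6. Of these, 9 were called lower at 7 weeks in the control comparison and 8 in the periodontitis comparison, where Pnliprp2 missed the threshold. The share called lower among all genes that passed at 7 weeks alone is not given here, so nothing is read from these counts.

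Clps and Pnliprp2 were the acinar members with the smallest change. Clps measured 65.9, 38.5, 43.8, 58.5 and 68.9 CPM in C1 to C5 of 2 weeks and 21.4, 16.8, 15.5, 17.2 and 20.8 at 7 weeks. Its log2 change to 7 weeks was -1.59 ± 0.34 (SE, edgeR adjusted p = 0.000482) in control and -1.92 ± 0.34 (edgeR adjusted p = 6.81e-05) in periodontitis comparisons, which corresponded to 2.90 and 3.67 times higher pooled levels at 2 weeks. Pnliprp2 measured 42.1, 31.4, 28.9, 31.4 and 47.5 CPM in C1 to C5 of 2 weeks and 21.7, 23.6, 15.3, 11.3 and 20.5 at 7 weeks, a change of -0.97 ± 0.33 (edgeR adjusted p = 0.0145). In periodontitis comparisons the change of Pnliprp2 was -0.63 ± 0.32 (edgeR adjusted p = 0.0912).

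The other 7 members that passed at 7 weeks alone fell further, to different extents. The pooled level of Cela1, an elastase gene, was 7.88 and 9.16 times higher at 2 weeks (control and periodontitis), that of Rnase1, a secreted ribonuclease gene, 5.90 and 5.46 times, that of Ctrl 68.2 and 103 times and that of Pnliprp1 90.6 and 196 times. Among gastric members the ratios were 336 and 194 for Gkn3, 382 and 275 for Muc6, and 63.7 and 54.7 for Pgc. Each of these was called in both comparisons. Members that passed through the libraries of 2 weeks only are given by their counts, with no test. Amy2a2 had 0 counts at 7 weeks in both groups, so it was at least 3746-fold and at least 3847-fold higher at 2 weeks against a floor of 3 counts over each group. Tff2 had 0 counts in control pups of 7 weeks, which gave at least 31765-fold, and 3 counts in the other group, all in P5, a ratio of 22688 with a counting interval (95%, exact) of 7763 to 110017. Gkn2 was at least 2321-fold and at least 3445-fold higher at 2 weeks by the same floor. Intervals and floors cover counting error only.

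Nkx6-3, Cel and Muc5ac were at the limit of detection at 7 weeks. Nkx6-3 had 1 count in control and 2 in periodontitis libraries of 7 weeks, Cel had 3 in each group, and Muc5ac had 0 in both.

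At 7 weeks what remained was uneven between libraries. Gkn3 measured 1.69, 0.638, 2.56, 1.13 and 0.966 CPM in C1 to C5 and 0.393, 0.205, 0.312, 1.25 and 6.48 in P1 to P5. The lead acinar gene at that age, Clps, measured 11.1, 18.4, 19.4, 18.8 and 35.9 CPM in P1 to P5, and both genes were highest in P5. Clps was not typical of the core acinar set: it had 5164 counts at 7 weeks, against 0 to 225 for the other core acinar members. Whether its transcripts at that age came from acinar cells was not tested. For Clps and Gkn3 over the 10 libraries r was 0.61 (permutation p = 0.064, adjusted 0.192) and rho 0.33 (permutation p = 0.349, adjusted 0.524), and without P5 and P1 r was -0.17 over 8 libraries. For Clps and Muc6, the lead Brunner-shared gene, r was -0.32 (permutation p = 0.368, adjusted 0.481) and rho 0.01 (permutation p = 1, adjusted 1). For Gkn3 and Muc6 r was -0.49 (permutation p = 0.148, adjusted 0.296) and rho -0.43 (permutation p = 0.218, adjusted 0.466). Genes of the proximal duodenum list moved in both directions in P5 of 7 weeks. Apoa4 measured 21504 CPM there against 39402 to 78544 in the other 9 libraries, whereas Slc40a1, the iron exporter gene, also picked after its values were seen, measured 696 CPM against 20.1 to 194, and their part in the Gkn3 and Clps levels was not tested.

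The wider lists were read by age with the same limit, since many of their genes also passed the filter through the libraries of 2 weeks only. Of the other acinar list, 19 of 23 genes found were tested, with 2 called higher and 14 lower by edgeR at 7 weeks in control pups and 3 and 13 in the others, beside 61.5% and 66.1% of all genes called. Of these, 9 passed at 7 weeks alone, with 2 higher and 4 lower in control pups and 3 and 3 in the others. The genes called higher included Reg1 and Zg16, both also made by intestinal epithelium. Of the other gastric list, 16 of 22 were tested, with 2 higher and 12 lower in control pups and 3 and 12 in the others. Of these, 5 passed at 7 weeks alone (Capn8, Capn9, Ctse, Ghrl and Hdc), with 2 higher and 2 lower in control pups and 3 and 2 in the others. The share called among all genes that passed at 7 weeks alone is not given, so nothing is read from the counts of either list. Ctse, a cathepsin gene, had a log2 change of -4.89 in control pups, beside a median of -0.13 over all genes tested.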

How the data were processed

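Small intestine of 20 pups' libraries was measured by polyadenylated RNA sequencing. The deposited values are expected counts per gene, made by the authors with cutadapt 4.8, FastQC 0.11.8, STAR 2.7.8a and RSEM 1.3.3, per the submitters' processing notes, which list the builds GRCm38 and GRCh38; the annotation release and strand setting were not given in the sources used here. The deposited expected counts were whole numbers, so rounding changed 0 of them. Of 55491 rows, 4 named no gene and held 0 counts. Genes were filtered with filterByExpr (17464 kept, with at most 0.0838% of a library's counts removed) and scaled by TMM, and CPM are counts per 1000000 of that scaled size.

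All 4 groups of 5 entered 1 edgeR 4.0.16 fit (R 4.3.3, robust quasi-likelihood, 16 residual degrees of freedom, threshold 0.05 after Benjamini-Hochberg adjustment). Each SE was recovered from the F statistic, as the size of the log2 fold change over √F. Correlations used log2 CPM with a prior count of 2 and 100000 resamples (scipy 1.17.1). The test was tried on simulated counts. DESeq2 1.42.0, limma-voom (limma 3.58.1), other filters and scalings, a replicate block and leaving out libraries were alternatives; leaving out libraries from sums and pairwise medians was added after the data were seen. By rule, genes given in full were the 5 most abundant of each organ and any called for the dam by edgeR. So were the 6 with the smallest p by age. The rule also took those with a library at least 20 times above the median of its age. Amy2a2, Prss2, Try4, Ins2 and A4gnt were given for each library of 2 weeks outside these rules. The members, lists and rules were chosen with earlier results of these data known. Libraries of 1 group differed by more than sampling noise in every pair, so none was counted as a repeat.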

Additional observations from a re-analysis of the deposited data

Results flagged for a closer look

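Checks covered 42 groups of 5 libraries, among the members given in full by rule and the acinar and gastric sums. Of these groups, 4 held a library far from the other 4, by a gap above 0.71 of the whole range. Chance alone gives about 1 in 20 such groups. Cpb1 in control pups of 2 weeks measured 382 CPM in C5 against 18.8 to 73.4 in C1 to C4, a gap of 0.8497 of the range. Nkx6-3 in the same library measured 5.15 CPM against 11.1 to 13.0, a gap of 0.7556. In pups of dams with periodontitis at 7 weeks, Gkn3 measured 6.48 CPM in P5 against 0.205 to 1.25 in P1 to P4, a gap of 0.8340. Pnliprp1 measured 1.27 CPM in that library against 0.797 to 0.935, a gap of 0.7102.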

How the results depend on the processing

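The number of members called for the dam at 2 weeks was 0 in edgeR under every scaling, filter and left-out library tried (range 0 to 0), 1 in DESeq2 and 7 in limma-voom with sample quality weights; the cause was not tested. Over all genes the same comparison called 5 in edgeR, 598 in DESeq2, 5200 in limma-voom and 0 to 387 with 1 library left out, 387 of them without P2. Members called by age ranged from 34 to 35 with 1 library left out, in both comparisons. Of 104 counts of called members under alternatives, 102 were within 1.5 times the reported count.

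Replicate numbers did not pair the libraries: the correlation of deviations of libraries with the same number ran from -0.17 to 0.08 at 2 weeks and from -0.40 to 0.29 at 7 weeks. With the replicate block, 0, 0 and 0 members were called for the dam at 2 weeks, at 7 weeks and for the difference, and 35 and 35 by age, while Cpb1 at 2 weeks became 0.36.

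The relation of Gkn3 and Tff2 missed the threshold by Spearman's rho (0.72), with group means removed (0.98) without the 2 farthest libraries (0.52), without P1 (0.98) and without P2 (0.74), and ran from 0.74 to 1.00 with 1 library left out. At 7 weeks Clps and Muc6 turned from -0.32 to 0.01 by Spearman's rho and 0.53 without the 2 farthest libraries, ranging from -0.54 to 0.14 with 1 library left out, and Clps and Gkn3 turned to -0.17 without the 2 farthest. Scaled by total counts without TMM, mean acinar sums at 7 weeks were 41.8 (control, 54.2 with TMM) and 46.9 (periodontitis, 58.2), and the mean gastric sum of control pups at 2 weeks was 2195 (1809 with TMM). The median correlation within the gastric set was 0.54 with group means removed at 2 weeks and -0.43 at 7 weeks over members with at least 50 counts.

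For the dam at 2 weeks, limma-voom turned Cela2a to -0.15, Cpb1 to 0.23, Gkn2 to -0.06 and Muc6 to 0.10. With 1 library left out, Cpb1 ran from -0.73 to 0.86, Gkn3 from -0.59 to 0.06, Muc6 from -0.65 to 0.03 and Nkx6-3 from -0.24 to 0.03. Depth limits members at 7 weeks most: a floor of 3 counts over a group is 0.0228 CPM in control and 0.0241 CPM in periodontitis libraries.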
